A study of Mus musculus with 12 samples.

Results

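Foxl2, Gata4, Gata6, Sox9, Wt1, Cebpa, Cebpb, Cebpd, Runx1 and Runx2 encode transcription factors that set granulosa cell identity or act as these cells luteinize. The 10 genes were taken by symbol from the tables of mural granulosa cells (MGCs, the layers along the follicle wall) and cumulus cells (which surround the oocyte). Each had 1 row in both tables, among 29101 genes for MGCs, 33137 for cumulus cells and 26382 in both. The question was how these factors differ between WT and Sphk1/2gc-/- mice, which lack sphingosine kinases in granulosa cells, early after the ovulatory stimulus.

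RNA was sequenced from 12 libraries, 3 for each genotype and cell type, all at 2 h post-hCG in immature females primed with eCG. WT mice were bought C57/BL6. Sphk1/2gc-/- mice carry Sphk1-/-, a null allele in every tissue, with Sphk2 fl/fl and Fshr-Cre, so Sphk2 is lost only where the Fshr promoter drives Cre. Effects of Sphk1 loss outside granulosa cells, and of Fshr-Cre itself, cannot be told apart from those of granulosa cells because the controls carry neither. The labels do not say that libraries of a group came from separate mice, so the p-values measure the spread between these libraries.

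FOXL2 is a forkhead factor that maintains the female fate of granulosa cells, and SOX9 is its counterpart in the Sertoli cells of the testis. In adult granulosa cells loss of FOXL2 lets Sox9 rise. WT1 keeps granulosa cells in an immature state, and GATA4 and GATA6 are zinc finger factors that drive genes of follicle growth and steroid synthesis. C/EBPα and C/EBPβ are induced by the LH surge through ERK1/2 and are required for ovulation and luteinization. RUNX1 and RUNX2 bind DNA together with CBFβ and are also induced around ovulation.

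The 4 promoters below are shown because Runx1 had the lowest adjusted p between genotypes in cumulus cells, Runx2 is its paralog, and Foxl2 was the gene of the female program among the 10 that fell there. They are RefSeq windows of 250 bases before and 50 bases from a start site (GRCm38.p6), 5′ to 3′ on the gene's strand. RefSeq windows were used for 5 of the 10 genes (Foxl2, Cebpa, Cebpb, Runx1 and Runx2). Capitals mark the RUNX letters TGTGGT, the CCAAT box letters CCAAT, or the C/EBP letters TTGCNNAA, on either strand.

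Runx1 distal start, chr16:92826025-92826324 (−): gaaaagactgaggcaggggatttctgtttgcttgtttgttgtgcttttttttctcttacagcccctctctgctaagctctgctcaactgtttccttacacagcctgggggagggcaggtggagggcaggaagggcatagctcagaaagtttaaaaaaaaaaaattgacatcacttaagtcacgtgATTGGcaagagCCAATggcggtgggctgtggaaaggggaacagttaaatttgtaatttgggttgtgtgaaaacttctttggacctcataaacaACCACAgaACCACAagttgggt

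Runx1 proximal start, chr16:92697280-92697579 (−): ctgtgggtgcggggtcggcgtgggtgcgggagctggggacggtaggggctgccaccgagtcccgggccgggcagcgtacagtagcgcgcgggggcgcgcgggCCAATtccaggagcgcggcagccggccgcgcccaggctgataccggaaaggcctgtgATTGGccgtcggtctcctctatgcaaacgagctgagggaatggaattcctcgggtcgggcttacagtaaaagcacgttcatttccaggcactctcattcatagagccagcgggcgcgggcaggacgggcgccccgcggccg

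Runx2, chr17:44814578-44814877 (−): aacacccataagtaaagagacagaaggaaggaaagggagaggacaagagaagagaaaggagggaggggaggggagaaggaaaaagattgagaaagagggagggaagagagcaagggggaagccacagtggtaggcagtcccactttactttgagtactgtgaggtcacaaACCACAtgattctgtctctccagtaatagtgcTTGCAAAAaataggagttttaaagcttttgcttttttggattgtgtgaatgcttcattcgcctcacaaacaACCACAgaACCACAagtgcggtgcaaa

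Foxl2, chr9:98955357-98955656 (+): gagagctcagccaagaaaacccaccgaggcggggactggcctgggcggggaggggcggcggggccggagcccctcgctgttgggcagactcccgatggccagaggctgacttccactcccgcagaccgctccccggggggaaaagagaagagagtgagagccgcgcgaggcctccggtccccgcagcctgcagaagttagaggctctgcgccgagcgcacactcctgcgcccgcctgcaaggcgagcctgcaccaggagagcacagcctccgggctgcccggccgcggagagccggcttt

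The distal Runx1 window held the RUNX letters 2 times, from bases 29 and 37 after the start, and the Runx2 window 3 times, from base −80 and from bases 24 and 32. These letters were in 16.8% of the 32851 promoter windows. Both Runx1 windows held CCAAT letters 2 times, against 37.4% of windows with at least 1 match. The Runx2 window also had 1 match to the C/EBP letters, found in 10.8% of windows. The Foxl2 window had 0 matches to these letters, to the GATA letters AGATAA (11.2% of windows), to the SOX letters ACAATG (12.6%) or to the forkhead letters TGTTTAC (3.65%). By the gene position used for the levels (chr9:98955288-98958543), this window lies wholly within the Foxl2 exon. It therefore holds no bases before that start, and sequence upstream of it was not searched. In the Cebpb window the core TGACG of a cAMP response element was present 3 times, against 20.8% of windows with at least 1. The full element TGACGTCA, found in 1.79% of windows, was in none of the windows of these 5 genes. A match describes letters only.

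Values are FPKM (reads scaled by exon length and library size), and depth was similar in all libraries, at 16100365 to 19761604 reads. Sphk1/2gc-/- MGC library 3 stood apart, correlating at 0.907 to 0.936 with the rest of the MGC libraries, and 64.9% of 15279 genes lay outside the range of the other 5 there. WT cumulus library 3 listed 27498 genes above 0, and the other 5 cumulus libraries 18765 to 19259. The targeted genes did not separate the genotypes. Sphk1 had 35, 45 and 9 reads in MGC libraries labelled Sphk1/2gc-/- and 132, 151 and 37 in WT, and in cumulus cells it had 7, 43 and 51 against 7, 6 and 8. Sphk2 did not pass the test in MGCs or cumulus cells (adjusted p = 0.933 and 0.751). Exons on the opposite strand overlap those of 7 of the 10, and the kit is not stated to keep strand. The Sphk values are sums over whole genes, so they do not test the deleted exons, and genotypes are as the labels give them. Of 7 cumulus markers tested, 3 passed as higher and 3 as lower in WT cumulus cells than in WT MGCs. Amh, a cumulus marker, was at 0.102 to 1.90 FPKM in WT cumulus cells and 113.1 to 173.7 in WT MGCs, which goes against the label. Genes of cumulus expansion, chosen after their values were seen, were split. Has2 and Ptx3 were at 31.9 to 74.6 and 91.3 to 218.4 FPKM in WT cumulus cells, above the 12.7 to 18.3 and 44.2 to 54.6 FPKM of WT MGCs, whereas Tnfaip6 and Ptgs2 were at 121.6 to 282.3 and 64.1 to 127.1 FPKM, below the 746.6 to 937.6 and 267.6 to 365.3 FPKM of WT MGCs.

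In cumulus cells of Sphk1/2gc-/- mice, Runx1, Sox9 and Cebpd rose and Foxl2 fell. Runx1, Sox9 and Cebpd differed by log2 fold changes of 2.09, 1.89 and 0.92 on the log2(FPKM + 1) scale, which understates changes of low genes. The fall of Foxl2 was smaller (log2 fold change −0.49). Of the 9 genes tested (group mean 0.5 FPKM or above in either genotype), 3 passed as higher and 1 as lower, passing being an adjusted p no greater than 0.05. Among the 12205 genes tested 9.66% passed as higher and 12.7% as lower. For 6 of the 9 genes (4 higher, 2 lower) the genotypes had separate ranges, against 42.3% of all genes, and the median log2 fold change was 0.41 against −0.06. The same 4 genes passed without WT cumulus library 3. Granulosa cell markers summed to 3802 to 4908 FPKM in WT and 2556 to 2915 in Sphk1/2gc-/- cumulus cells, and 5 of the 7 passed as lower, with a median of −1.35; their part in the results was not tested. In bulk RNA, fewer cells that express a gene and less RNA per cell cannot be told apart.

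**Figure D1:**
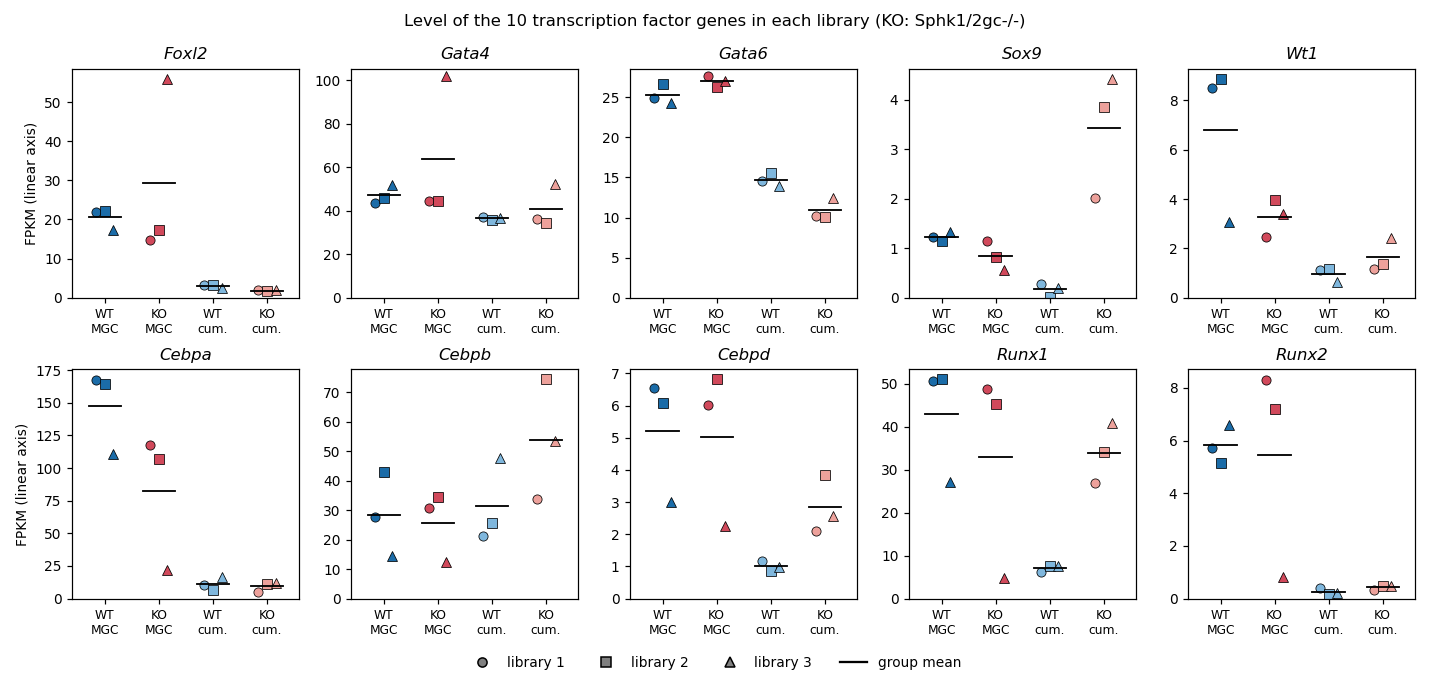
FPKM of the 10 genes in each library (linear axes from 0, different for each gene), with symbols for library number and a line at each group mean. Runx1 lies at 26.9 to 40.9 FPKM in the 3 Sphk1/2gc-/- cumulus libraries and at 6.28 to 7.57 in WT, and Sphk1/2gc-/- MGC library 3 lies apart for Foxl2, Gata4, Cebpa, Runx1 and Runx2.

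Foxl2 (chr9:98955288-98958543, +) ranked 6 of the 10 by mean FPKM in both WT MGCs and WT cumulus cells. Its level in WT cumulus cells was 3.15, 3.23 and 2.47 FPKM, and in Sphk1/2gc-/- cumulus cells 1.89, 1.62 and 1.91 FPKM. All 3 Sphk1/2gc-/- libraries were below all WT libraries, with 104 to 119 reads against 141 to 189. Foxl2 fell by 0.49 on the log2 scale (SE 0.146, adjusted p = 0.0457) and passed in 4 of 13 alternatives. This call was close to the limit: a block for replicate number gave an adjusted p of 0.0909, and it was 0.101 to 0.155 when any 1 library other than WT library 3 or Sphk1/2gc-/- library 1 was left out. Its exon overlaps that of the antisense gene Foxl2os by 12 bases.

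Sox9 (chr11:112782224-112787760, +), the Sertoli cell factor, was near the limit of detection in WT cumulus cells. It had 0.285, 0.0135 and 0.207 FPKM there, that is 19, 1 and 15 reads, of which the second is within the floor of 3 reads. The Sphk1/2gc-/- cumulus libraries had 2.02, 3.85 and 4.41 FPKM, or 157, 315 and 350 reads. The groups were far apart, and Sox9 rose by a log2 fold change of 1.89 (SE 0.231, adjusted p = 0.00195). It passed in 13 of 13 alternatives, at 1.72 to 3.82, and was highest with a pseudocount of 0.1 FPKM. The Foxl2 to Sox9 ratio of FPKM was 0.938, 0.419 and 0.432 in these libraries, below 1 in each, and 11.0 and 11.9 in WT cumulus libraries 1 and 3. In WT cumulus library 2 Sox9 was within the floor, so the ratio there is not reliable and is not read. In MGCs it was 12.8 to 21.4, except for 99.4 in Sphk1/2gc-/- library 3. Of 3 other Sertoli cell markers tested (Dhh, Gdnf and Shbg), 0 passed as higher and 2 as lower. All 3 were also present in WT cumulus cells, at 2.85 to 4.24, 5.23 to 7.55 and 1.55 to 3.51 FPKM. Dmrt1 was listed at 0 in all 3 Sphk1/2gc-/- cumulus libraries and at 0.0219 to 0.0429 FPKM in WT, and the 5 markers summed to 8.88 to 14.7 FPKM and 11.6 to 13.4 in WT.

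**Figure D2:**
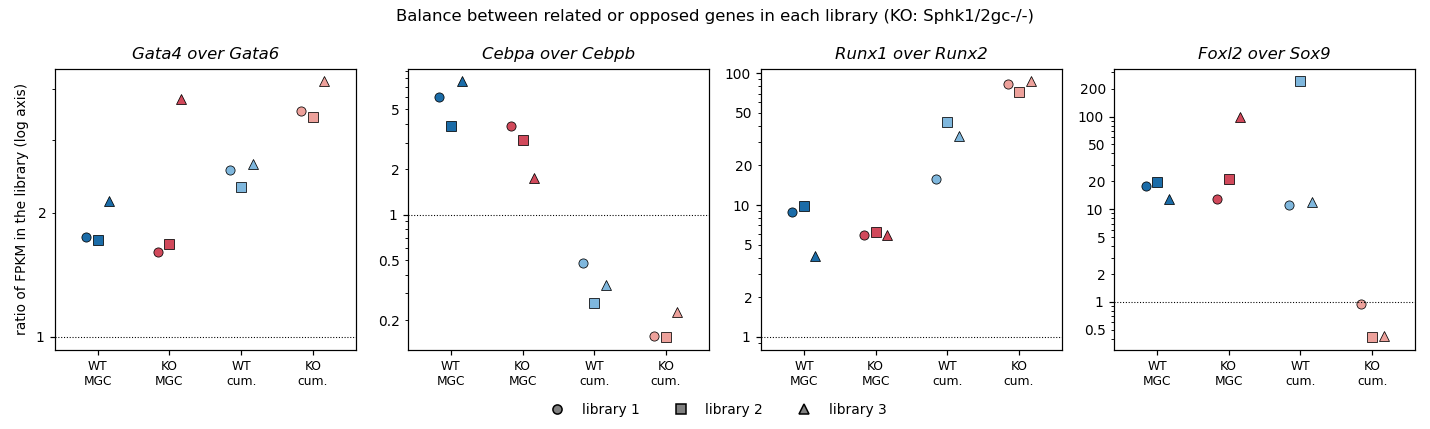
Ratio of FPKM of 4 gene pairs in each library (log axes, dotted line at 1). Foxl2 over Sox9 is below 1 only in the Sphk1/2gc-/- cumulus libraries. Its point for WT cumulus library 2 rests on 1 read of Sox9 and is not reliable. Cebpa over Cebpb is above 1 in the 6 MGC libraries and below 1 in the 6 cumulus libraries.

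Wt1 (chr2:105126529-105173616, +) showed no genotype difference that passed in cumulus cells. Its level was 1.14, 1.16 and 0.643 FPKM in WT cumulus cells and 1.17, 1.38 and 2.43 in Sphk1/2gc-/- cumulus cells. The groups only just did not overlap (log2 fold change 0.41, SE 0.209, adjusted p = 0.191). Wt1 is also a gene of the ovarian surface epithelium, whose 8 markers summed to 11.3 to 16.1 FPKM in WT and 18.5 to 28.9 in Sphk1/2gc-/- cumulus cells. Of 2 of these tested, 0 passed, and their part in the Wt1 values was not tested.

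Neither GATA factor passed in cumulus cells. Gata4 (chr14:63198922-63271692, −) was the most abundant of the 10 in WT cumulus cells, at 37.2, 36.0 and 36.8 FPKM. The Sphk1/2gc-/- libraries had 36.3, 34.3 and 52.2 FPKM and overlapped with WT (log2 fold change 0.13, SE 0.183, adjusted p = 0.634). Gata6 (chr18:11052064-11085635, +), with which GATA4 shares many targets, was at 14.6, 15.5 and 13.99 FPKM in WT and 10.3, 10.0 and 12.5 in Sphk1/2gc-/- cumulus cells. Every Sphk1/2gc-/- library was below WT, but Gata6 did not pass (log2 fold change −0.40, SE 0.148, adjusted p = 0.0845). The Gata4 to Gata6 ratio was 2.32 to 2.63 in WT and 3.42 to 4.17 in Sphk1/2gc-/- cumulus cells, without overlap and without a test.

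Among the C/EBP genes, Cebpd was the one that passed in cumulus cells. Cebpd (chr16:15887286-15891031, +) encodes C/EBPδ, a family member induced by inflammatory signals. It was at 1.18, 0.846 and 0.988 FPKM in WT cumulus cells, against 2.11, 3.85 and 2.56 FPKM in those of Sphk1/2gc-/- mice. The groups did not overlap, and Cebpd rose by 0.92 (SE 0.189, adjusted p = 0.0123). It passed in 10 of 13 alternatives, and without WT cumulus library 2 the adjusted p was 0.0516. Its exon shares 562 bases with the antisense gene Spidr, and reads of the pair cannot be told apart without strand.

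Cebpb (chr2:167688915-167690418, +), which encodes C/EBPβ, reached the highest mean of the 10 in Sphk1/2gc-/- cumulus cells. It had 33.6, 74.6 and 53.3 FPKM there and 21.2, 25.6 and 47.7 in WT. WT library 3 overlapped with the Sphk1/2gc-/- range, and the difference did not pass (log2 fold change 0.77, SE 0.354, adjusted p = 0.149). Without Sphk1/2gc-/- library 1 it was 1.07 (adjusted p = 0.0482), and without WT library 3 it was 1.10 (adjusted p = 0.0563). Cebpa (chr7:35119293-35121928, +), whose product acts with C/EBPβ in luteinization, was at 10.2, 6.65 and 16.4 FPKM in WT and 5.24, 11.5 and 12.0 in Sphk1/2gc-/- cumulus cells. The ranges overlapped widely (log2 fold change −0.18, SE 0.362, adjusted p = 0.746).

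Runx1 (chr16:92601466-92826149, −), the RUNX gene of fetal and ovulatory granulosa cells, gave the lowest adjusted p of the 10. It was at 6.28, 7.57 and 7.49 FPKM in WT cumulus cells. The Sphk1/2gc-/- cumulus libraries had 26.9, 34.0 and 40.9 FPKM. The lowest of these was above every WT library, and Runx1 rose by 2.09 (SE 0.184, adjusted p = 0.000685), passing in 13 of 13 alternatives at 1.95 to 2.24. Leukocytes express Runx1, too. The 11 leukocyte markers summed to 9.48 to 57.4 FPKM in Sphk1/2gc-/- and 6.32 to 56.4 in WT cumulus cells. Of the 6 of them tested, 4 had a log2 fold change above 0, with a median of 0.50, and Fcer1g passed as higher (0.853 to 1.04 FPKM in WT, 1.80 to 3.28 in Sphk1/2gc-/-) and S100a9 as lower. Lyz2 was at 1.01 to 34.7 FPKM in WT and 4.58 to 47.4 in Sphk1/2gc-/- cumulus cells. Ptprc, Itgam and Csf1r, picked from the list after their values were seen, were at no more than 0.0377, 0.0311 and 0.416 FPKM in any cumulus library. The part of leukocytes in the Runx1 values was not tested. The 7 endothelial markers summed to less than 1 FPKM in every cumulus library, at most 0.943.

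Runx2 (chr17:44495987-44814797, −), which acts later in luteinization, was below the filter in cumulus cells and was not tested. It had 0.401, 0.176 and 0.226 FPKM in WT and 0.324, 0.470 and 0.472 in Sphk1/2gc-/- cumulus cells, that is 28 to 57 and 54 to 82 reads. The ranges overlapped. The Runx1 to Runx2 ratio was 72.5 to 86.7 in Sphk1/2gc-/- and 15.7 to 42.9 in WT cumulus cells. In MGCs it was 4.13 to 9.91.

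**Figure D3:**
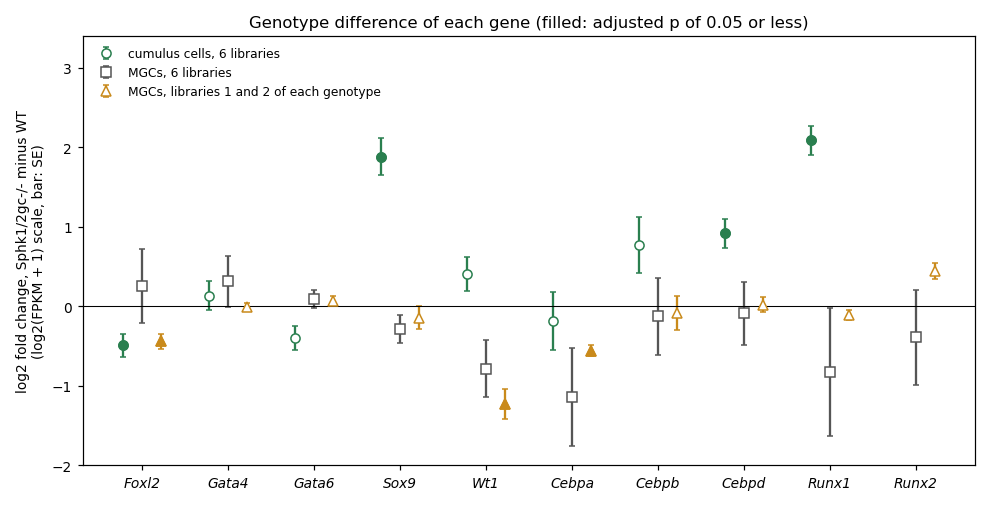
Log2 fold change of each gene, Sphk1/2gc-/- minus WT, with its SE, in cumulus cells, in all 6 MGC libraries and in MGC libraries 1 and 2 of each genotype; filled symbols have an adjusted p of 0.05 or less. Runx1, Sox9, Cebpd and Foxl2 are filled in cumulus cells, and 0 of the 10 in the 6 MGC libraries.

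In MGCs the genotype changed none of the 10 at this limit. By limma, 0 of 10 passed, and 0 reached 0.05 before adjustment. With a block for replicate number 0 passed, and Cebpa alone reached 0.05 before adjustment (log2 fold change −1.14, SE 0.374, adjusted p = 0.408). Within the pairs of libraries of the same number, Cebpa, Runx1 and Sox9 were lower in Sphk1/2gc-/- MGCs in 3 of 3. The share of all genes with the same order in each pair was not computed, and the labels tie no number to a mouse. No fall is read from this order. Among 15279 genes tested 0.0393% passed (6 genes), and 1406 reached 0.05 before adjustment. The ranges of the genotypes overlapped for each of the 10, whereas they did not for 16.9% of all genes. The median log2 fold change of the 10 was −0.21, and of all genes −0.003. The SE reached 0.809 for Runx1.

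In Sphk1/2gc-/- MGC library 3, 8 of the 10 genes lay outside the range of the other 5 MGC libraries, where 64.9% of all genes did. Foxl2 was at 55.9 FPKM there against 14.8 to 22.3 in the other 5, and Gata4 at 102.1 against 43.7 to 51.9. The other 6 outside it were lower. Runx1 was at 4.89 against 27.2 to 51.0 FPKM, and Runx2 at 0.820 against 5.15 to 8.30. Cebpa was at 21.7 against 106.9 to 167.4 FPKM. Cebpb (12.4 against 14.5 to 42.8), Cebpd (2.24 against 3.01 to 6.82) and Sox9 (0.562 against 0.814 to 1.33) lay closer to the range. Gata6 (27.0 FPKM) and Wt1 (3.38 FPKM) were within it. In the other 5 MGC libraries, each taken in turn, 1 to 4 of the 10 lay outside, where 20.97% to 35.7% of all genes did. Leukocyte markers summed to 29.7 FPKM in it and 107.8 to 334.3 in the other MGC libraries, and red cell markers to 29.9 against 225.9 to 399.0. The Sertoli cell markers summed to 188.3 FPKM in it against 51.4 to 82.5. Gdnf (133.6 FPKM) and Dhh (50.3 FPKM) were most of that sum. Both genes were also present in WT MGCs, at 32.95 to 51.9 and 16.9 to 29.5 FPKM. The luteinization and ovulation genes summed to 4026 FPKM in this library against 8432 to 10531. The part of these markers and genes in the values of the 10 genes was not tested.

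**Figure D4:**
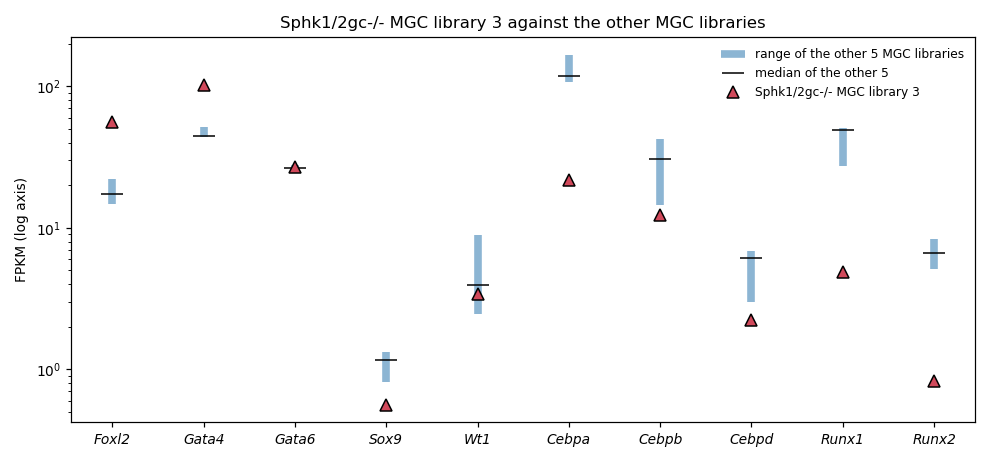
FPKM of each gene (log axis) in Sphk1/2gc-/- MGC library 3 (triangles) beside the range and median of the other 5 MGC libraries. The library lies above the range for Foxl2 and Gata4 and below it for 6 genes, where 64.9% of all genes lie outside it.

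The MGC libraries numbered 3 of both genotypes were also left out. Over the remaining 4 libraries, Wt1, Cebpa and Foxl2 passed as lower in Sphk1/2gc-/- MGCs, 3 of 10, where 16.1% of all genes passed in either direction. Wt1 was at 2.46 and 3.96 FPKM in these and 8.495 and 8.88 in WT (log2 fold change −1.23, SE 0.187, adjusted p = 0.0229). WT library 3, at 3.08 FPKM, was within the Sphk1/2gc-/- range, and Wt1 did not pass over all 6 libraries (−0.78, SE 0.362, adjusted p = 0.574). Cebpa was at 117.7 and 106.9 against 167.4 and 164.5 FPKM (−0.56, SE 0.0678, adjusted p = 0.0141), and with all libraries it had −1.14 (SE 0.617, adjusted p = 0.629) and without Sphk1/2gc-/- library 3 alone −0.37 (adjusted p = 0.359). WT library 3 had 110.6 FPKM of Cebpa. Foxl2 was at 14.8 and 17.4 against 22.03 and 22.3 FPKM (−0.44, SE 0.0924, adjusted p = 0.0420), but over all 6 libraries its sign was the opposite (0.25, SE 0.465, adjusted p = 0.915). Without Sphk1/2gc-/- library 3 alone it was −0.33 (adjusted p = 0.281). WT library 3, at 17.2 FPKM of Foxl2, was between the values of Sphk1/2gc-/- libraries 1 and 2.

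The other 7 genes did not pass in MGCs in either fit. Runx1 had 50.6, 51.0 and 27.2 FPKM in WT and 48.9, 45.3 and 4.89 in Sphk1/2gc-/- MGCs (log2 fold change −0.83, adjusted p = 0.801). Runx2 was at 5.70, 5.15 and 6.60 against 8.30, 7.22 and 0.820 FPKM. Over libraries 1 and 2 it differed by 0.44 (adjusted p = 0.0511). Cebpb was at 27.7, 42.8 and 14.5 FPKM in WT and 30.7, 34.3 and 12.4 in Sphk1/2gc-/- MGCs. Both libraries numbered 3 were the lowest of their genotype for Cebpb, Cebpd, Cebpa and Runx1. Cebpd had 6.54, 6.08 and 3.01 against 6.03, 6.82 and 2.24 FPKM. Gata6 was the steadiest, at 24.96, 26.6 and 24.3 FPKM in WT and 27.7, 26.3 and 27.0 in Sphk1/2gc-/- MGCs (log2 fold change 0.09, SE 0.109). Gata4 was at 43.7, 45.7 and 51.9 against 44.5, 44.3 and 102.1 FPKM, and Sox9 at 1.23, 1.14 and 1.33 against 1.16, 0.814 and 0.562 FPKM.

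Sox9 was the gene whose genotype difference itself differed between cell types. The difference in cumulus cells minus that in MGCs was 2.17 (SE 0.297, adjusted p = 0.00549), and 1 of 10 genes passed, against 3.93% of 15869 genes. Sox9 passed in 20 of 20 alternatives, at 2.01 to 4.37. For Runx1 the value was larger but its error too (2.92, SE 0.890, adjusted p = 0.0847). With a block for replicate number Runx1 passed (adjusted p = 0.0244), and with MGC libraries 1 and 2 its difference was 2.20 (SE 0.237, adjusted p = 0.00115). In that reduced fit 4 of 10 passed, Sox9, Runx1, Wt1 (1.63, adjusted p = 0.0124) and Cebpd (0.89, adjusted p = 0.0443), where 15.5% of all genes did. The median over the 10 was 0.93 and over all genes −0.03. Foxl2 gave −0.74 (SE 0.518, adjusted p = 0.439), and −0.047 (SE 0.181, adjusted p = 0.892) with MGC libraries 1 and 2, so a difference between cell types was not shown for it.

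Between the cell types of WT mice, 8 of the 10 genes were lower in cumulus cells than in MGCs. Of all genes 24.1% passed as higher and 52.5% as lower in WT cumulus cells, and the median log2 difference of all genes was −0.54. Each cell type has its own table and a common scaling is not stated, so a gene's difference is best read beside this median. For the 10 the median was −1.73. Cebpa had the largest value, at 147.5 ± 32.0 FPKM (mean ± SD, n = 3) in MGCs and 11.1 ± 4.92 in cumulus cells (log2 difference −3.68, SE 0.552, adjusted p = 6.88e-05). Foxl2, Runx2 and Runx1 followed with −2.44 (SE 0.366), −2.43 (SE 0.460) and −2.39 (SE 0.629). Wt1, Cebpd, Sox9 and Gata6 differed by −1.88, −1.58, −0.94 and −0.74. Gata6 did not pass when libraries were scaled by the median of ratios (−0.04). Gata4 (−0.35, adjusted p = 0.260) and Cebpb (0.19, adjusted p = 0.723) did not pass, and their signs turn with scaling (0.37 for Gata4 by the median of ratios, −0.14 for Cebpb as TPM). Markers of other cell types also summed lower in WT cumulus cells than in WT MGCs. Leukocyte markers were at 6.32 to 56.4 FPKM against 175.5 to 334.3, and red cell markers at 0.346 to 22.4 against 259.0 to 399.0. Theca and stroma markers were at 19.8 to 67.4 against 186.0 to 340.5, and oocyte markers at 3.89 to 7.17 against 36.0 to 91.9. Granulosa markers were lower too (3802 to 4908 against 8779 to 14953). The part of such cells was not tested.

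In Sphk1/2gc-/- mice Sox9 had the opposite sign. Of the 10, 5 passed, 4 as lower and 1 as higher in cumulus cells, where 22% of all genes passed as higher and 51.3% as lower, with a median of −0.51. Foxl2 (−3.18, SE 0.366), Cebpa (−2.72, SE 0.552), Runx2 (−1.87, SE 0.460) and Gata6 (−1.24, SE 0.120) were lower. Sox9 was higher in cumulus cells (1.23, SE 0.210, adjusted p = 0.000215), opposite to WT. Runx1 did not pass (0.53, SE 0.629, adjusted p = 0.460), and without Sphk1/2gc-/- MGC library 3 it was −0.48 (adjusted p = 0.115). The median of the 10 was −0.64. These comparisons use the same 12 libraries as those between genotypes. Theca and stroma markers summed to 15.9 to 39.1 FPKM in Sphk1/2gc-/- cumulus cells and to 163.5 to 206.8 in Sphk1/2gc-/- MGCs. Oocyte markers summed to 2.20 to 2.64 against 26.9 to 112.5. Leukocyte sums overlapped (9.48 to 57.4 against 29.7 to 136.1), and the part of such cells was not tested.

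**Figure D5:**
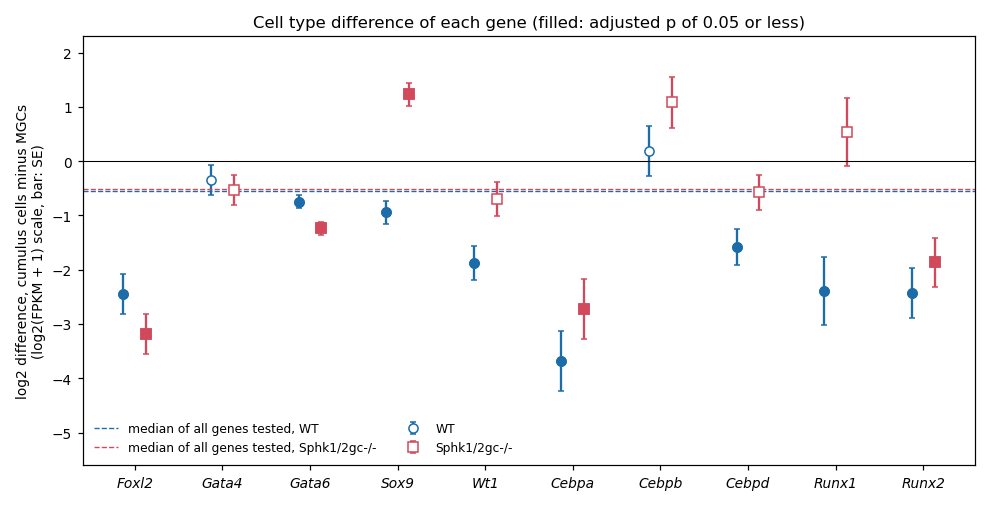
Log2 difference of each gene, cumulus cells minus MGCs, with its SE, in WT (circles) and Sphk1/2gc-/- mice (squares); filled symbols have an adjusted p of 0.05 or less and dashed lines are the medians of all genes tested. Sox9 is at −0.94 in WT and at 1.23 in Sphk1/2gc-/- mice.

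The order of the 10 by mean FPKM in WT MGCs was Cebpa, Gata4, Runx1, Cebpb, Gata6, Foxl2, Wt1, Runx2, Cebpd and Sox9. Cebpa stood above all others, but Gata4, Runx1, Cebpb and Gata6 overlapped with their neighbours, as did Wt1, Runx2 and Cebpd. In WT cumulus cells Gata4 (36.6 ± 0.625 FPKM, mean ± SD, n = 3) and Cebpb (31.5 ± 14.2) led and overlapped. Gata6, Cebpa and Runx1 came next, and Sox9 was last. In Sphk1/2gc-/- cumulus cells Runx1 (34.0 ± 7.02 FPKM) overlapped with Gata4, Sox9 stood between Cebpa and Cebpd, and Runx2 was last.

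Lists of partners and of known target programs were then counted. Among 28 cofactors and family members, 17 were tested, 0 passed as higher and 2 as lower in Sphk1/2gc-/- cumulus cells, with a median of −0.06, that of all genes. For this and the lists that follow, 9.66% of all genes passed as higher and 12.7% as lower. Nr5a2, the nuclear receptor LRH-1 of granulosa cells, fell from 32.3, 25.04 and 27.5 to 7.22, 10.5 and 10.6 FPKM (−1.498, SE 0.188, adjusted p = 0.00217). Cbfa2t3, a corepressor gene of the Runx1t1 family, fell by 0.96 on the log2 scale (adjusted p = 0.00891). Cbfb, the common RUNX partner, was at 45.9 to 58.4 FPKM in WT and 44.3 to 60.0 in Sphk1/2gc-/- cumulus cells.

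Of 16 genes tested of the female granulosa program, 1 passed as higher and 7 as lower in Sphk1/2gc-/- cumulus cells, with a median of −0.32. This list holds all the granulosa cell markers but Amhr2, and shares Nr5a2, Esr2 and Foxo1 with the partners. The counts of these lists are therefore not separate results. Cyp19a1, the aromatase of estradiol synthesis, fell from 45.3, 57.4 and 83.7 to 16.9, 8.90 and 8.11 FPKM (−2.38, SE 0.306, adjusted p = 0.00236). Hsd17b1, which makes estradiol from estrone, fell by 2.13 on the log2 scale (adjusted p = 0.000616). Of 8 genes tested of the Sertoli program, which SOX9 leads in the testis, 2 passed as higher and 2 as lower (median 0.32), and the largest changes among those passing were falls of Dhh (−1.23, adjusted p = 0.00563) and Shbg (−1.09, adjusted p = 0.0185). Tesc (0.87, adjusted p = 0.0333) and Clu (0.61, adjusted p = 0.0463) were those that rose. The 15 genes of the program summed to 73.9 to 88.5 FPKM in WT and 105.04 to 119.8 in Sphk1/2gc-/- cumulus cells, of which Clu made up 39.3 to 58.3 and 67.3 to 70.6 FPKM.

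Of 25 tested genes of luteinization and ovulation, 6 passed as higher and 4 as lower, with a median of 0.11. Those that fell most were Akr1c18, which degrades progesterone (−2.52, adjusted p = 0.0278), and Hsd3b1, which makes it, which fell from 756.9, 837.0 and 897.4 to 198.1, 142.0 and 148.1 FPKM (−2.36, adjusted p = 0.000350). Akr1c18 was uneven in WT, at 19.6, 10.5 and 1.89 FPKM, and passed in 9 of 13 alternatives. Cyp11a1 and Lhcgr also fell. Of those that rose, Cdkn1a, a cell cycle inhibitor gene, had the largest change (1.81, adjusted p = 0.00497), followed by the matrix genes Ptx3 (1.73, adjusted p = 0.00838) and Tnfaip6 (1.58, adjusted p = 0.00937). Vegfa, Scarb1 and Rgcc were the others. In MGCs 0 genes passed in any of these 4 lists over 6 libraries. Over MGC libraries 1 and 2, the numbers passing as higher and lower were 0 and 4 for partners, 2 and 3 for the female program, 1 and 2 for the Sertoli program, and 6 and 5 for luteinization, of 19, 17, 10 and 25 tested, where 16.1% of all genes passed in either direction. For the difference of the genotype effect between cell types, 0 partners passed as higher and 1 as lower. The numbers were 0 and 3 for the female program, 1 and 0 for the Sertoli program, and 2 and 1 for luteinization. Of all genes 3.93% passed in either direction. With no more than 2 named per list, these were Nr5a2 (−1.53), Cyp19a1 (−3.05), Hsd17b1 (−2.13), Hsd3b1 (−2.25), Clu (1.38) and Scarb1 (1.74).

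Profiles most like those of the 10 were sought over the 12 libraries among 6719 genes averaging 5 FPKM or more, by Pearson r of log2(FPKM + 1). As the libraries share cell type and genotype, r is a description. For Runx1 the closest were Oasl2 (r = 0.973), Trib1 (0.966) and Rnd3 (0.945). For Sox9 they were Kti12 (0.921), Arglu1 (0.916) and Ifitm1 (0.914). Foxl2 was nearest to Llgl1 (0.996), Atl3 (0.993) and Dynll2 (0.992), and Wt1 to Ntn4 (0.956), Btbd3 (0.954) and Ndrg2 (0.949). Gata6 was nearest to Cachd1 (0.989), Ubn1 (0.985) and Nr5a2 (0.985), and Gata4 to Ptk2 (0.956), Spats2 (0.946) and Xpot (0.938). Cebpa was nearest to Arf6 (0.985), Star (0.984), the cholesterol carrier of steroid synthesis, and Zeb2 (0.984). Cebpd was nearest to Jag1 (0.980), Slc44a1 (0.970) and Rnf180 (0.969), and Runx2 to Slc5a7 (0.985), Gm11843 (0.983) and Gm16485 (0.982). Cebpb had the weakest likeness, to Ccnl1 (0.863), Klf6 (0.862) and Zfp948 (0.861).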

How the data were processed

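The authors deposited normalized values per gene, in 1 table per cell type, without naming the unit. The deposited values were taken as FPKM from the values themselves. HISAT2 and GRCm38 are named in the submitters' processing notes; the counting tool is not given in the sources used here, and strand was not stated to be kept. Symbols and positions came from GENCODE M21, which lacks 64 (MGCs) and 66 (cumulus cells) of the listed genes. Values times exon length fell on whole reads (within 0.02) for 90.6% to 92.1% of values above 0, which gave the depths; the floor was 3 reads. limma 3.58.1 in R 4.3.3 was run on log2(FPKM + 1) with a variance trend, two-sided, for genes averaging 0.5 FPKM or more in any group; passing means a p adjusted by Benjamini-Hochberg of at most 0.05. The code was tried on simulated data whose spread within groups was capped low. That trial does not cover genes as variable as Runx1 in Sphk1/2gc-/- MGCs. The sources name no test for the sequencing. The 10 genes and the lists were chosen with earlier results of these data known. From each list the 2 passing genes with the largest change are named, with markers, partners and other passing genes named after seeing their values. Motifs were searched on both strands.

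After removal of group means, MGC libraries of the same number in the 2 genotypes correlated at 0.220, 0.158 and 0.224. Those of different number were at −0.232 to 0.155, so the highest of these was close to the lowest matched value. In cumulus cells the matched values were −0.148, −0.0511 and 0.115, and the others −0.191 to 0.179. The labels tie no number to a mouse, so pairing was not established, and MGC libraries were also read as pairs. The number was tried as a block, and pseudocount, filter, scaling, variance trend, a fold limit and each library were varied.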

Additional observations from a re-analysis of the deposited data

Results flagged for a closer look

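The genotype difference differed between cumulus cells and MGCs, by the test of the difference itself in limma, for 1 of the 10 transcription factor genes. For Sox9 it was higher by 2.17 on the log2 scale in cumulus cells (higher than every WT library in 3 of 3 Sphk1/2gc-/- cumulus libraries, adjusted p = 0.00549). Among the named genes of the lists, it was lower in cumulus cells for Cyp19a1 (−3.05, adjusted p = 0.0166), Hsd3b1 (−2.25, adjusted p = 0.0135), Hsd17b1 (−2.13, adjusted p = 0.0450) and Nr5a2 (−1.53, adjusted p = 0.0125), and higher for Scarb1 (1.74, adjusted p = 0.0312) and Clu (1.38, adjusted p = 0.0216). Of 20 alternatives the difference passed in 20 for Sox9, Nr5a2 and Hsd3b1, in 17 for Cyp19a1, 14 for Clu, 13 for Scarb1 and 11 for Hsd17b1, whose adjusted p reached 0.123.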

How the results depend on the processing

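Over 857 alternative values for the 10 genes, 785 kept direction and side of the threshold, 29 newly passed, 15 no longer passed and 28 changed sign; where not named otherwise, the cause was not tested. In cumulus cells 2 genes passed without a filter (more genes tested) and 2 with a fold of 2 or more required, and 2 to 5 with 1 library left out. In MGCs 3 passed over libraries 1 and 2, and 0 with any 1 library left out. For the difference between cell types 2 passed with the replicate number as a block, 4 over MGC libraries 1 and 2, and 1 to 2 with 1 library left out. Between cell types of Sphk1/2gc-/- mice 8 passed as TPM, 8 over MGC libraries 1 and 2, and 5 to 7 with 1 library left out; in WT mice 8 did in each of those. With the block Foxl2 no longer passed in cumulus cells (adjusted p = 0.0909), while Runx1 passed for the difference between cell types (0.0244) and Cebpb between cell types of Sphk1/2gc-/- mice (0.0490).

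Signs changed in MGCs over libraries 1 and 2 for Foxl2 (−0.44), Gata4 (−0.010), Cebpd (0.022) and Runx2 (0.44). With 1 library left out in turn, the MGC values ran from −0.33 to 0.60 for Foxl2, −0.080 to 0.51 for Gata4, −0.52 to 0.32 for Cebpb, −0.38 to 0.31 for Cebpd, −1.36 to 0.18 for Runx1 and −0.81 to 0.36 for Runx2. The sign turned without Sphk1/2gc-/- MGC library 3 for each of these 6, and also without WT MGC library 1 (Cebpd) and WT MGC library 2 (Cebpb and Cebpd). In cumulus cells Cebpa ran from −0.47 to 0.16, turning without WT library 3 (0.12) or Sphk1/2gc-/- library 1, and Gata4 from −0.052 to 0.24, turning without Sphk1/2gc-/- library 3. The difference between cell types was 0.14 for Gata4 and −0.28 for Runx2 over MGC libraries 1 and 2, and ran from −0.38 to 0.21 and −0.20 to 0.98 with 1 library left out, turning without Sphk1/2gc-/- MGC library 3. Between WT cell types Cebpb was −0.14 as TPM, −0.21 over MGC libraries 1 and 2, and −0.21 to 0.54 with 1 library left out, turning without WT MGC library 3 or WT cumulus library 3. Gata4 was 0.37 there by the median of ratios, and 0.19 in Sphk1/2gc-/- mice. Runx1 between cell types of Sphk1/2gc-/- mice was −0.48 over MGC libraries 1 and 2 (adjusted p = 0.0263), and −0.48 to 1.06 with 1 library left out, turning without Sphk1/2gc-/- MGC library 3.

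Of the genes passing between WT cell types, 31.4% were higher, 23.6% as TPM and 47.9% by the median of ratios, and in Sphk1/2gc-/- mice 30.0%, 23.1% and 47.6%. For the difference between cell types these shares were 62.3%, 77.7% and 51.7%. With 3 libraries a group and under 20 reads of Sox9 in WT cumulus cells, the fold of Sox9 is imprecise.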
